A study of Mus musculus with 4 samples.

Results

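The genes described here are 9 regulators of the transcription factor NRF2: Nfe2l2, which encodes NRF2 itself, its relative Nfe2l1, the negative regulators Keap1, Cul3 and Bach1, the small Maf partners Mafg, Mafk and Maff, and Sqstm1. They were chosen by name as known parts of the pathway, once earlier results of these data, among them lower NRF2 target genes in KO, were known, and all 9 were among the 14157 genes listed in the deposited table. RNA had been sequenced from 4 esophageal tumours of C57BL/6 mice, all induced with the quinoline carcinogen 4NQO, which is widely used to raise squamous tumours in the mouse esophagus. The wild-type group (WT) had replicates 3 and 6, here WT-3 and WT-6, and the group labelled S100A14 CKO (KO) had replicates 1 and 8, here KO-1 and KO-8, so n = 2 per group. The sources used here do not give the promoter or Cre behind the deletion, the ages of the mice, or whether each library is a separate animal, so the p-values below refer to the spread among these 4 samples, which may be technical.

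NRF2 is a cap'n'collar basic leucine zipper protein that pairs with a small MAF protein and binds antioxidant response elements at genes of glutathione synthesis, NADPH production and detoxification. Its amount is set largely at the protein level: KEAP1 presents it to the CUL3 ubiquitin ligase for degradation, and electrophiles that modify KEAP1 stop this. BACH1 competes with NRF2 for small MAF partners and DNA, p62 (the product of Sqstm1) sequesters KEAP1, and NRF1 (the product of Nfe2l1) is best known for driving proteasome genes. In the mouse, loss of Keap1 causes hyperkeratosis of the esophagus, and NFE2L2 is a recurrently mutated gene of human esophageal squamous carcinoma. The question asked of the data was whether the RNA of any regulator is lower in KO tumours together with the RNA of NRF2 target genes.

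Several regulators of the pathway are themselves known to carry antioxidant response elements, so promoter sequence is shown before the values. RefSeq promoter windows on GRCm38.p6, from 250 bases before to 50 bases after an annotated start site, were found for all 9 genes, 15 windows in all because Nfe2l1 and Maff have several. The core of the element, TGACNNNGC, was searched on both strands. It was present in a window of 4 of the 9 genes, namely Nfe2l2 and all 3 small Mafs, and in none of the windows of Nfe2l1, Keap1, Cul3, Bach1 and Sqstm1. Of all 32851 windows of this length 12.39% held it, and of all 27025 genes with a window 13.99% held it in at least 1. The 4 windows follow, 5′ to 3′ on the gene's own strand, with the match in capitals. They are chr2:75704614-75704913 (minus strand) for Nfe2l2, chr11:120633498-120633797 (minus) for Mafg, chr5:139791286-139791585 (plus) for Mafk and chr15:79346371-79346670 (plus) for Maff.
Nfe2l2: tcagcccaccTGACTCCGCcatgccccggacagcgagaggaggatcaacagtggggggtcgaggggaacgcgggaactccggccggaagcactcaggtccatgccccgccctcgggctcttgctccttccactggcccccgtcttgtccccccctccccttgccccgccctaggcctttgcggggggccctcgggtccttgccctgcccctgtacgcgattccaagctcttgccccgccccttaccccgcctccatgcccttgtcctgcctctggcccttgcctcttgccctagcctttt
Mafg: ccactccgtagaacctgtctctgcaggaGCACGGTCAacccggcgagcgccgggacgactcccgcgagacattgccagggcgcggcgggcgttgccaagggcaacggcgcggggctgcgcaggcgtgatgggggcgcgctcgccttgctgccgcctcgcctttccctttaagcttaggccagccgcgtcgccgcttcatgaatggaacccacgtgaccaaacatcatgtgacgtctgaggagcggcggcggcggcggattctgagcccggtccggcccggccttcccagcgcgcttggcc
Mafk: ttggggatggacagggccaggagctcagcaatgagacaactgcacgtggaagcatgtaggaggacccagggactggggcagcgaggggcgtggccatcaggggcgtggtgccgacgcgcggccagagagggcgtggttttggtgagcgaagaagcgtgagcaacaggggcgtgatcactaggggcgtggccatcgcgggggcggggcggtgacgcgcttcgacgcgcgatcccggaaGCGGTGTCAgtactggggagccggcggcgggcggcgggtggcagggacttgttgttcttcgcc
Maff: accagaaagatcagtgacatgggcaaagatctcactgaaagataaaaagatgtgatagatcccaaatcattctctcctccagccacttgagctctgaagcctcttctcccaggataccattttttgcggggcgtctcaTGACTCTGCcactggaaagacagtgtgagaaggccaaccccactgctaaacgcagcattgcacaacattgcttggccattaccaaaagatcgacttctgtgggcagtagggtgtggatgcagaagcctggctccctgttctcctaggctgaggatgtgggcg
The leftmost base of the match lay at -240 from the start site in Nfe2l2, at -222 in Mafg, at -13 in Mafk and at -112 in Maff. The Nfe2l2 and Maff matches read TGACTCCGC and TGACTCTGC on the gene's strand. Those of Mafg and Mafk lie on the other strand, where they read TGACCGTGC and TGACACCGC. A match describes the letters only, and sequence outside these windows was not searched, so no match here does not mean that a gene lacks the element.

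The deposited values are scaled read signal, from which whole reads were recovered. The 4 libraries held 11132019 to 16182109 reads, of which 1052423 to 2107060 fell on nuclear protein-coding genes, and 12304 genes were tested. S100a14, the gene named in the genotype, was counted 463 times in WT-3, 347 times in WT-6, never in KO-1 and 1 time in KO-8. KO-8 stood apart. Across genes, its correlation with each other library was 0.769 to 0.816 in log2 values, while the remaining 3 correlated at 0.908 to 0.915. Basal keratinocyte markers, 9 of 9 of them above 0 in every library, summed to 25900 and 23716 in WT-3 and WT-6, to 23204 in KO-1 and to 6791 in KO-8. Krt14 and Krt5 made up most of this sum in WT, so it does not stand for every basal marker. Of the 9, 7 had a log2 change below 0 (52.5% of all genes tested) and 2 above 0 (47.5%). Suprabasal markers, 7 of 7 listed, summed to 12247 and 3382 in WT, 2606 in KO-1 and 139.9 in KO-8, where Krt1 was at 0. Macrophage markers (10 of 10 listed) summed to 39.6 to 49.9 in WT and 94.3 to 219 in KO, with Cd163 at 0 in WT-6. Fibroblast markers (6 of 6) summed to 108 to 239 in WT, 97.6 in KO-1 and 849.8 in KO-8. Skeletal muscle markers (6 of 6) summed to 2.51 to 8.58 in WT, 13.4 in KO-1 and 175 in KO-8, and Tnnt3 or Myh4 was at 0 in some libraries. Smooth muscle markers (4 of 4) summed to 16.6 to 73.7 in WT and 53.1 to 126 in KO, and endothelial markers (5 of 5) to 21.4 to 30.2 and 15.4 to 18.6. Of 6 lymphocyte markers only Jchain was listed, at 0 in WT and 7.92 to 7.99 in KO.

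Nfe2l2 RNA was lower in both KO tumours than in both WT tumours, and it was by far the most abundant regulator in WT. Nfe2l2 (ENSMUSG00000015839, chromosome 2) had a scaled value of 885 in WT-3 and 539.8 in WT-6, against 244 in KO-1 and 54.6 in KO-8. The groups did not overlap, and the ratio between the KO libraries was larger than that between the WT libraries. The mean was 712 ± 244 (SD, n = 2) in WT and 149 ± 134 in KO, 4.77-fold higher in WT. These values rest on 4586, 1699, 1111 and 212 reads in WT-3 and WT-6 and KO-1 and KO-8. Per 1000000 reads of nuclear protein-coding genes, that is 2176 (95% exact binomial interval 2114 to 2240), 1317 (1255 to 1381), 726 (684 to 770.0) and 201 (175 to 230.5), intervals that cover counting error only. The log2 change on the log2(value + 1) scale was -2.57 (SE 0.72, 95% interval -4.27 to -0.87), with an unadjusted p of 0.00885 and a limma adjusted p of 0.910 over all genes tested. Nfe2l2 therefore did not pass the threshold of 0.05. Its log2 change ranked 76 from the lowest among the 12304 genes tested. In the authors' deposited table the log2 fold change of Nfe2l2 was -2.25, with a p-value of 0.0131 and an adjusted p-value of 0.366.

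**Figure D1:**
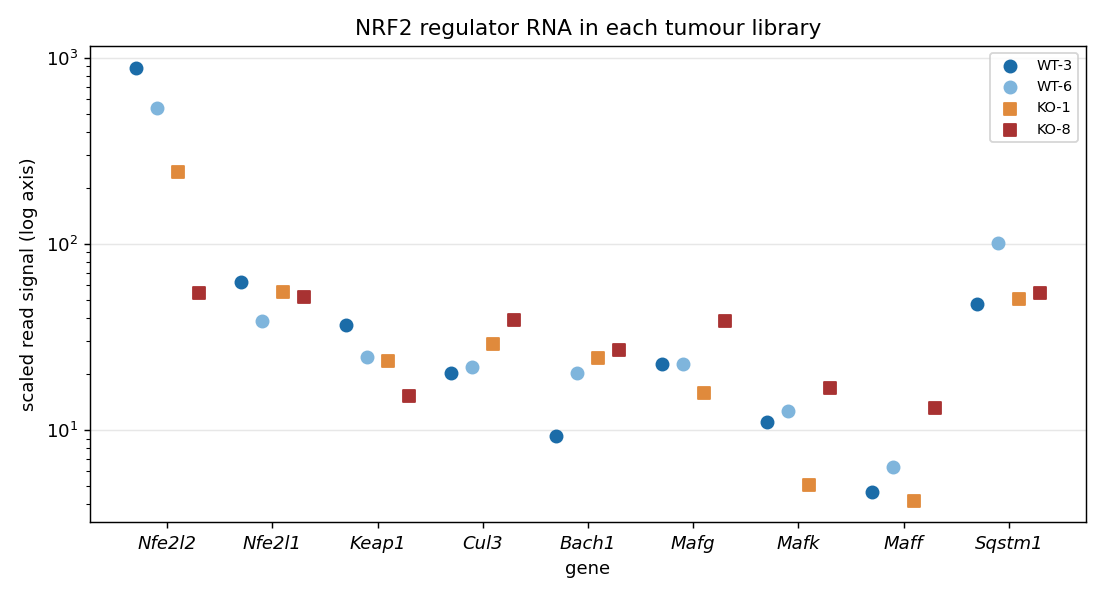
Scaled read signal of the 9 regulators (log axis) in each library, circles for WT and squares for KO. Nfe2l2 runs from 885 in WT-3 to 54.6 in KO-8, while the other regulators stay between 4.18 and 102.

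Without KO-8 the log2 change of Nfe2l2 was -1.50 (limma adjusted p = 0.9998), and without KO-1 it was -3.64 (adjusted p = 0.00378), past the threshold, with the lone KO library assumed to vary like the WT pair. The basal keratinocyte marker sum of KO-1 was 23204, against 25900 and 23716 in WT-3 and WT-6. Single basal markers differed in direction. Perp had 387 and 336 in WT against 254 in KO-1 and 118 in KO-8, and Itga6 had 150 and 152 in WT against 263 and 282. The suprabasal marker sum was lower in KO-1 than in either WT library. All 7 suprabasal markers had a log2 change below 0 (52.5% of all genes tested), with a median of -4.28. At an unadjusted p under 0.05 in limma, 6 were lower, against 3.62% of all genes. In limma and in edgeR's quasi-likelihood test 0 passed the threshold, while DESeq2 called 4, all lower (0.274% of all genes in that direction). The median of the suprabasal markers against the WT mean was -2.69 in KO-1 and -5.17 in KO-8. Lor, loricrin of the cornified layer, had 347 and 181 in WT against 38.0 in KO-1 and 2.32 in KO-8. All 10 macrophage markers had a log2 change above 0 (47.5% of all genes tested). Their median against the WT mean was 1.03 in KO-1 and 2.04 in KO-8. Testing required a value of 1 in 2 or more libraries, which Cd163 and Adgre1 met only through KO. The direction of these 2 markers was therefore fixed by the filter. KO-8, with the lowest keratinocyte sums and the highest macrophage, fibroblast and skeletal muscle sums, had the lowest Nfe2l2 value. The part of cell content in the Nfe2l2 difference was not tested. In bulk tumour RNA, fewer cells of a type and less RNA per cell cannot be told apart.

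The other 8 regulators differed by less than Nfe2l2, the next largest log2 change being 0.85 for Bach1. Across the 9 genes, 0 passed the threshold in limma, where 0.00813% of all genes tested did (S100a14 alone). The count was also 0 in edgeR's quasi-likelihood test, which called 0 of 10332 genes, and in DESeq2, which called 0.462% of 11686. In each tool 1 of the 9 had an unadjusted p under 0.05, Nfe2l2 in limma, against 5.25% of all genes in limma, 5.03% in edgeR and 4.78% in DESeq2. The log2 change was below 0 for 4 regulators and above 0 for 5, against 52.5% and 47.5% of all genes tested. In scaled values Nfe2l2 and Keap1 had both KO libraries below both WT libraries (19.3% of all genes), and Cul3 and Bach1 had both above (14.5%). Counts of 2 of 9 in each direction are near that background. The median log2 change of the 9 was 0.12, beside -0.03 for all genes tested.

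Among the negative regulators, Keap1 was lower and Cul3 and Bach1 were higher in KO, each with a 95% interval that includes 0. Keap1 (ENSMUSG00000003308, chromosome 9), the substrate adaptor that senses electrophiles, had 36.7 and 24.8 in WT-3 and WT-6, 23.5 in KO-1 and 15.2 in KO-8. WT-6 and KO-1 were almost equal. The log2 change of Keap1 was -0.64 (SE 0.47, 95% interval -1.74 to 0.45, limma adjusted p = 0.954). Per 1000000 coding reads, Keap1 had 90.2 in WT-3, 60.5 in WT-6, 69.9 in KO-1 and 56.1 in KO-8. On that measure KO-1 lay above WT-6, so the order of the groups depends on the scaling. The counting intervals of Keap1 in WT-6 (47.8 to 75.5), KO-1 (57.3 to 84.5) and KO-8 (42.7 to 72.3) overlap.

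Cul3 (ENSMUSG00000004364, chromosome 1), the ligase scaffold, had 20.3 in WT-3, 21.9 in WT-6, 28.8 in KO-1 and 38.9 in KO-8. Both KO libraries lay above both WT libraries. The log2 change of Cul3 was 0.64 (SE 0.43, 95% interval -0.36 to 1.65, limma adjusted p = 0.946). Bach1 (ENSMUSG00000025612, chromosome 16), the heme-sensitive repressor, had 9.27 in WT-3, 20.3 in WT-6, 24.4 in KO-1 and 27.1 in KO-8. The gap between the WT libraries was larger than that between WT-6 and either KO library. Bach1 showed the largest positive log2 change of the 9, 0.85 (SE 0.51, 95% interval -0.34 to 2.04, limma adjusted p = 0.931), and without WT-3 it was 0.32. Macrophages and fibroblasts, whose markers were highest in KO-8, also express Bach1 and Cul3, and the part of these cells in the values was not tested.

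The small Mafs, which lack a transactivation domain and serve as partners of both NRF2 and BACH1, overlapped between the genotypes. Mafg (ENSMUSG00000051510, chromosome 11) had 22.6 in both WT libraries, 15.8 in KO-1 and 38.4 in KO-8. Mafk (ENSMUSG00000018143, chromosome 5) had 11.0 and 12.7 in WT-3 and WT-6, 5.06 in KO-1 and 16.7 in KO-8. Maff (ENSMUSG00000042622, chromosome 15) had 4.63 and 6.35 in WT, 4.18 in KO-1 and 13.1 in KO-8. All 3 were lowest in KO-1 and highest in KO-8, so the KO libraries lay on opposite sides of the WT pair. The log2 changes were 0.13 for Mafg (95% interval -1.11 to 1.36), -0.31 for Mafk (-1.73 to 1.12) and 0.41 for Maff (-1.02 to 1.85), with limma adjusted p-values of 0.998, 0.997 and 0.997. The sign of each turned with 1 library. Without KO-8 Mafg was at -0.49 and Maff at -0.31, and without KO-1 Mafk was at 0.47. Maff rests on 19 to 51 reads a library. A promoter window of each holds the same core as that of Nfe2l2 shown above, and their values did not share the Nfe2l2 order across the libraries.

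Sqstm1 and Nfe2l1 were the most abundant regulators after Nfe2l2, and in scaled values the genotypes overlapped for both. Sqstm1 (ENSMUSG00000015837, chromosome 11), the autophagy receptor p62 and itself a known NRF2 target, had 47.3 in WT-3 and 102 in WT-6, against 50.8 and 54.6 in KO-1 and KO-8. A single library, WT-6, stood above the other 3. The log2 change of Sqstm1 was -0.39 (95% interval -1.55 to 0.77, limma adjusted p = 0.994), and 0.15 without WT-6. Nfe2l1 (ENSMUSG00000038615, chromosome 11) had 62.2 and 38.4 in WT against 55.2 and 51.5 in KO, and both KO values lay between the WT values. Per 1000000 coding reads, Nfe2l1 had 153 in WT-3, 93.8 in WT-6, 164 in KO-1 and 190.0 in KO-8. On that measure both KO libraries lay above both WT libraries, so the order depends on the scaling. The counting intervals of WT-3 (136.6 to 170.5) and KO-1 (144.4 to 185.6) overlap. The log2 change of Nfe2l1 was 0.12 (95% interval -0.91 to 1.16, limma adjusted p = 0.998), and -0.22 without WT-6.

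**Figure D2:**
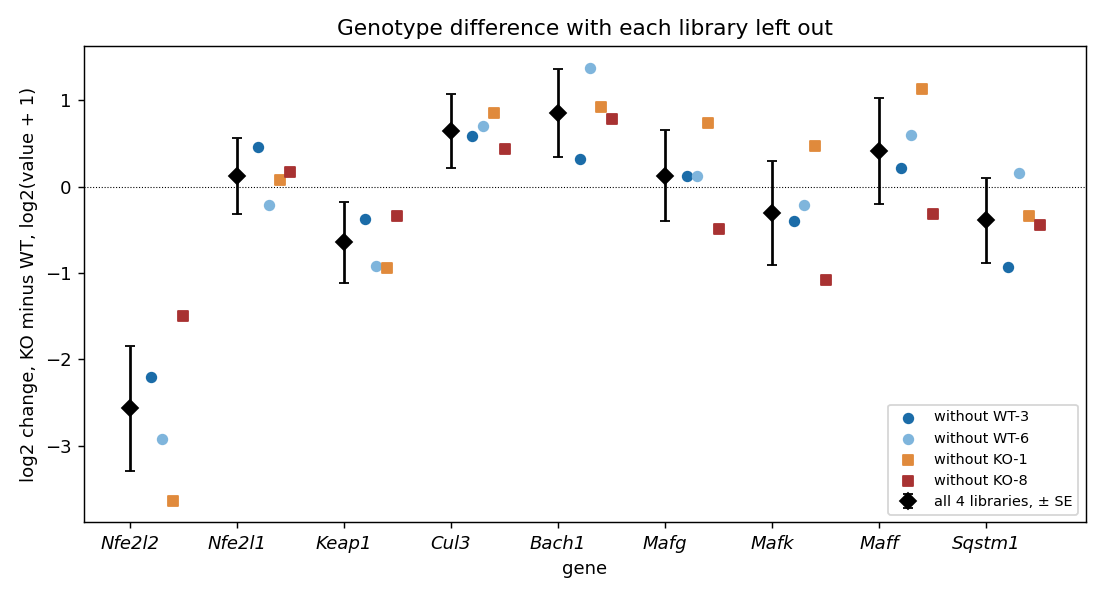
Log2 change of each regulator, KO minus WT, on the log2(value + 1) scale, with all 4 libraries (diamonds, ± SE) and with each library left out (coloured points). Nfe2l2 ranges from -3.64 to -1.50, and the points of Nfe2l1, the 3 small Mafs and Sqstm1 lie on both sides of 0.

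In reads set against Nfe2l2 within the same library, a measure that no scaling of the libraries can move, most regulators stood higher in the KO tumours. There were 4.14 and 4.59 Keap1 reads per 100 Nfe2l2 reads in WT-3 and WT-6, 9.63 in KO-1 and 27.8 in KO-8. The counting intervals of Keap1 in WT (3.56 to 4.79 and 3.61 to 5.76) lay below those in KO (7.82 to 11.8 and 20.5 to 37.3). Nfe2l1 gave 7.02 and 7.12 reads per 100 Nfe2l2 reads in WT, 22.6 in KO-1 and 94.3 in KO-8. The WT libraries thus agreed on both ratios within counting error while differing in Nfe2l2 itself.

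Bach1 gave 1.05 and 3.77 reads per 100 Nfe2l2 reads in WT-3 and WT-6, 9.99 in KO-1 and 49.5 in KO-8. Cul3 gave 2.29 and 4.06 in WT and 11.8 and 71.2 in KO. Sqstm1 gave 5.34 and 18.8 in WT, 20.8 in KO-1 and 100 in KO-8, where both genes had 212 reads. The counting intervals of Sqstm1 in WT-6 (16.7 to 21.2) and KO-1 (18.0 to 24.0) overlap. On the log2(value + 1) scale the groups did not overlap for 7 of the 8 ratios, and Mafk was the exception. The exact two-sided permutation p was 0.333 for those 7, which is the smallest that 2 against 2 libraries allow, and 0.667 for Mafk. All 8 ratios share Nfe2l2 as their denominator and are not independent of each other. Nfe2l2 was itself lower in both KO tumours (log2 change -2.57), so a gene with steady RNA would also separate the groups in this ratio. The share of all genes that do so was not computed, and the count of 7 is no result about the regulators.

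**Figure D3:**
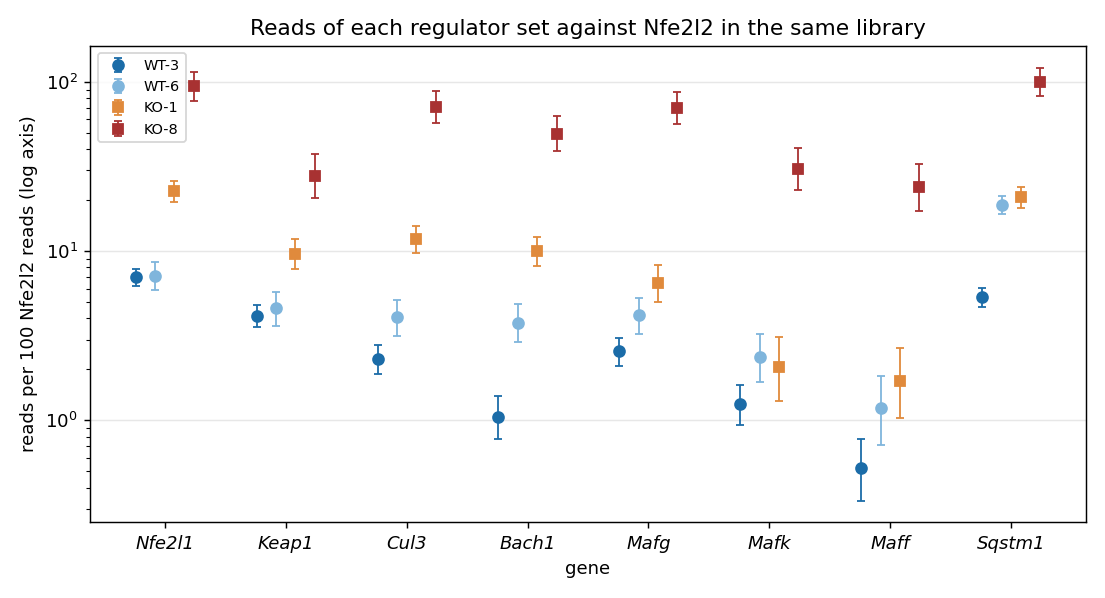
Reads of each of the other 8 regulators per 100 Nfe2l2 reads in the same library (log axis), with 95% exact intervals for counting error. KO-8 is highest for every gene, and KO-1 lies above both WT libraries for all but Mafk.

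Levels of different genes were compared per kilobase of annotated exon. Nfe2l2 had 233 and 142 per kilobase in WT-3 and WT-6, and the next regulator, Sqstm1, had 14.1 and 30.3. In KO-1 Nfe2l2 was still first, with 64.4 against 15.1 for Sqstm1. In KO-8 it was second, with 14.4 against 16.3 for Sqstm1. Over all 4 libraries the means per kilobase were 113.5 ± 95.5 (SD) for Nfe2l2, 18.9 ± 7.62 for Sqstm1, 9.53 ± 1.83 for Nfe2l1, 5.64 ± 1.74 for Cul3 and 5.34 ± 1.88 for Keap1. Mafg had 4.43 ± 1.71, Bach1 3.28 ± 1.27, Mafk 2.92 ± 1.24 and Maff 2.73 ± 1.60. From Cul3 down to Maff, neighbours in this order differed by less than their spread over the libraries, and because of KO-8 the ranges of Nfe2l2 and Sqstm1 also overlapped. The level of Nfe2l2 per kilobase was 27.0 and 14.6 times the summed level of the 3 small Mafs in WT-3 and WT-6, 11.2 times in KO-1 and 0.888 times in KO-8. These are RNA levels and say nothing of the proteins' amounts.

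NRF2 target genes other than the regulators, 26 in all, were lower in KO for 25 of 26 (52.5% of all genes tested), with a median log2 change of -1.53. Both KO libraries were below both WT libraries for 18 of them, 69.2% against 19.3% of all genes. The list was drawn up with a lower NRF2 programme in KO already known from these data. Its shares beside those of all genes are therefore no independent support for that fall. At an unadjusted p under 0.05, 15 were lower and 0 higher, against 3.62% and 1.63% of all genes, and 0 passed the threshold in limma (smallest adjusted p = 0.345) or in edgeR (11 at an unadjusted p under 0.05), while DESeq2 called 2, Aldh3a1 and Gstp1, both lower (0.274% of all genes in that direction). Without KO-8 the median was -0.99 and 24 of 26 were lower. The count was also 24 with quantile normalization, TMM factors, edgeR or DESeq2, and it was 23 without WT-3 and 22 without WT-6. These settings were added for the list after the data were seen. Suprabasal keratinocyte markers were lower beside the targets in both KO tumours, with medians against the WT mean of -2.69 in KO-1 and -5.17 in KO-8, and their part in the target values was not tested. The 4 with the smallest p were Aldh3a1, Gstp1, Gsta3 and Slc7a11. Aldh3a1, an aldehyde dehydrogenase, had 478 and 392 in WT-3 and WT-6 against 21.3 and 1.55 in KO-1 and KO-8. Gstp1, a glutathione S-transferase, had 319 and 233 in WT against 82.5 and 30.1 in KO. Gsta3, of the alpha class of these transferases, had 17.0 and 10.8 in WT against 3.08 and 0.773 in KO, the last at 3 reads. Slc7a11, the cystine transporter subunit, had 181 and 200.2 in WT against 25.1 and 66.0 in KO, so it was lower in KO-1 than in KO-8. Gst paralogs share sequence, so reads can have been split between them. Of the 21 target genes with a promoter window, 10 (47.6%) held the core shown above, against 13.99% of all genes. Of the 4 genes just named, Gsta3 alone was among these 10. The log2 changes of the 10 ran from -2.57 to -0.02, and a link between the core and the change was not tested.

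Set beside the target genes library by library, Nfe2l2 was the one regulator on the low side of their median in both KO tumours. Relative to the WT mean on the log2(value + 1) scale, the target median was -0.99 in KO-1 and -1.75 in KO-8. Nfe2l2 stood at -1.50 and -3.64 in these libraries. In KO-1, 9 of the 26 targets were lower than Nfe2l2, and in KO-8, 6 were. Mafk, at -1.08, was the other regulator below the target median in KO-1, but it stood at 0.47 in KO-8. Keap1 stood at -0.35 and -0.94, above the target median in both. Bach1 (0.78 and 0.92) and Cul3 (0.43 and 0.85) were above the WT mean in both.

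**Figure D4:**
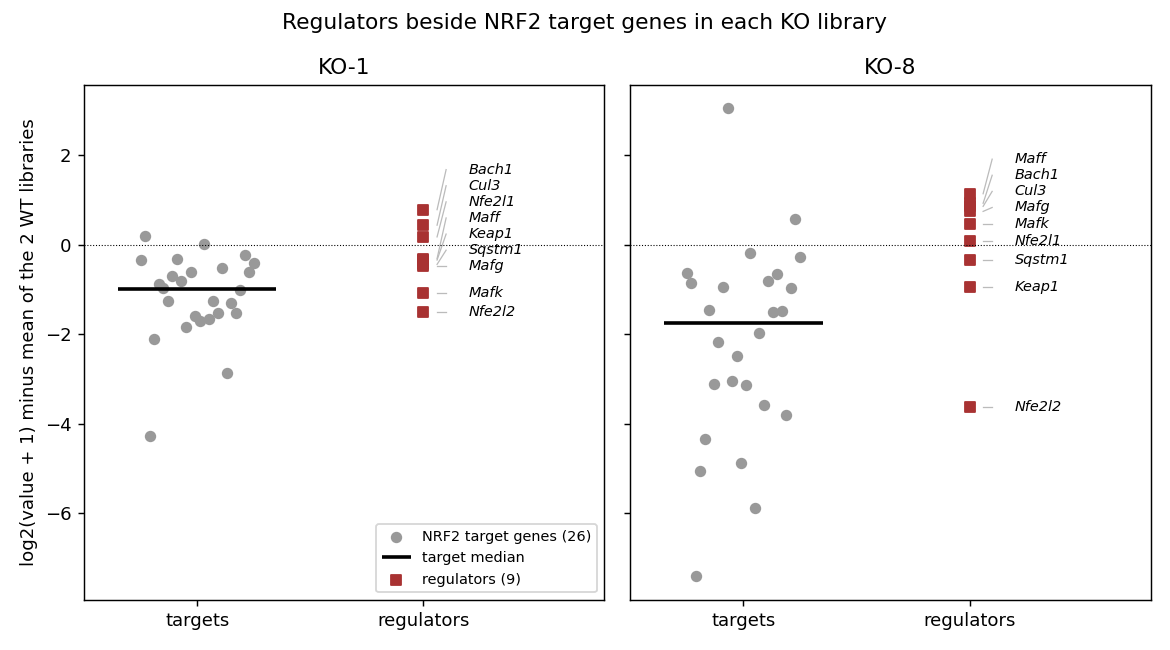
Difference from the mean of the WT libraries, on the log2(value + 1) scale, of the 26 NRF2 target genes (grey, with their median as a line) and the 9 regulators (red squares) in each KO library. Nfe2l2 lies below the target median in both panels, at -1.50 and -3.64, and Mafk in KO-1 alone.

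The log2 ratio of Nfe2l2 to the mean of the 26 targets was 3.09 and 2.33 in WT-3 and WT-6, 2.37 in KO-1 and 1.27 in KO-8. The WT and KO values overlapped, with KO-1 between the WT libraries, and the exact two-sided permutation p was 0.667. With 2 libraries a group this permutation p cannot fall below 0.333. It therefore cannot tell the ratio to the targets from the ratios to the other regulators, and no contrast between them was tested. Some targets did not share the order of Nfe2l2. Among these, chosen after their values were seen, Gsr, glutathione reductase, had 18.0 and 31.8 in WT, 13.2 in KO-1 and 205 in KO-8. Txnrd1, thioredoxin reductase, had 27.2 and 26.7 in WT, 17.4 in KO-1 and 40.5 in KO-8.

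Heme and iron genes, among them known targets of BACH1 repression, were mixed. Of 6 tested, 4 were lower and 2 higher in KO, with a median log2 change of -0.33. At an unadjusted p under 0.05, 2 were lower (3.62% of all genes). For this list and the lists that follow, 0 genes passed the threshold in limma, edgeR or DESeq2, and for the lists that follow 0 had an unadjusted p under 0.05 in any of these. Blvrb, biliverdin reductase B, had 59.4 and 102 in WT-3 and WT-6 against 22.0 and 5.67 in KO-1 and KO-8. Hmox1, the heme oxygenase that is the best known BACH1 target, had 20.8 and 27.3 in WT against 7.26 and 12.4 in KO. Both KO values were below both WT values for these 2 genes (19.3% of all genes), with limma adjusted p-values of 0.907 and 0.926. Fth1, the ferritin heavy chain, was chosen after its values were seen. It had 212 and 268 in WT, 214 in KO-1 and 957 in KO-8.

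Other proteins that act on NRF2, from adaptors and ligases to coactivators, showed no common direction. Of 17 tested, 8 were lower and 9 higher in KO, with a median log2 change of 0.01. Dpp3, which binds KEAP1, had 56.6 and 41.6 in WT against 29.2 and 22.4 in KO (limma adjusted p = 0.926). Palb2, another KEAP1 binder, had 3.47 and 1.27 in WT against 6.82 and 5.41 in KO (limma adjusted p = 0.926). Relatives of the cap'n'collar and Maf families were 4 lower and 1 higher of 5 tested, against 52.5% and 47.5% of all genes. The 4 lower include a gene with a log2 change of -8.6e-05. Bach2 had 0.386 and 0 in WT against 1.32 and 1.03 in KO, and Nfe2l3 had 1.16 and 1.91 in WT against 0.880 and 0 in KO, both too few reads to set against each other. Bach2 met the filter for testing only through KO and Nfe2l3 only through WT, so the filter fixed their directions.

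Genes tied to NRF1 and to p62 also gave no call. Of 4 genes that process or degrade NRF1, 3 were higher and 1 lower, with a median log2 change of 0.40. Ngly1, the deglycosylase that activates NRF1, had 5.60 and 8.26 in WT against 11.0 and 13.9 in KO. Vcp, the ATPase that extracts NRF1 from the endoplasmic reticulum membrane, had 179 and 239.9 in WT against 149 and 113 in KO. Proteasome subunit genes, the known NRF1 programme, were lower for 23 of 31 (52.5% of all genes), with a median of -0.23, and 14 of them had each KO value under each WT value (19.3% of all genes). Psmb3 had 56.9 and 46.7 in WT against 31.0 and 19.1 in KO, and Psmb4 had 33.6 and 48.3 in WT against 22.0 and 21.4 in KO (limma adjusted p = 0.926 for both). Autophagy receptors and their partners were 5 lower and 5 higher of 10, with a median of -0.06. Tax1bp1, an autophagy receptor, had 58.1 and 84.2 in WT against 99.2 and 96.6 in KO, and Map1lc3a, an LC3 gene, had 3.09 and 10.5 in WT against 2.42 and 4.12 in KO.

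The genes whose pattern over the 4 libraries was nearest to that of Nfe2l2, by Euclidean distance in centred log2(value + 1) among 5946 genes, were Ass1 (distance 0.334), Nccrp1 (0.344) and Selenok (0.348). Ass1, argininosuccinate synthase, had 275 and 222 in WT-3 and WT-6 against 96.8 and 21.6 in KO-1 and KO-8. For Keap1 they were Zfp110 (0.0682), Rexo1 (0.0685) and Elmsan1 (0.0710), and for Bach1 they were Tiparp (0.106), Trim44 (0.133) and C1s1 (0.135). With 4 libraries such likeness is a description of these samples. None of the nearest 3 to Nfe2l2 is a member of the target list. With 26 targets among 5946 genes and only 3 named, this does not show whether the targets share its pattern.

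Gene length and overlapping annotation were checked for the 9 genes. Across 12281 genes, log2 change and exon length had a Spearman correlation of 0.169, with shorter genes lower in KO. The exon length of Nfe2l2, 3796 bases, falls in the middle of 3 equal length classes, whose median log2 change was -0.02. Bach1, at 6179 bases, falls in the longest class (median 0.07) and Maff, at 2594, in the shortest (median -0.16). In the GENCODE annotation on GRCm38, no exon of Nfe2l2, Nfe2l1, Cul3, Bach1 or Maff overlaps an exon of another gene. Mafg shares 124 exon bases with Sirt7, which had 49.4, 26.7, 20.7 and 20.4 in the same library order, and Keap1 shares 510 with the antisense gene Gm16754, at 0.515 to 1.54. Sqstm1 shares 580 with Mrnip, at 0 to 1.74, and Mafk shares 169 with Tmem184a, at 0 to 3.67. Reads from these overlaps cannot be told apart here, since no source used here states the strand setting.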

How the data were processed

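RNA of each tumour was isolated with Trizol, and TruSeq RNA libraries were built, per the labels' protocols. In the deposited table each library has a column of scaled read signal. The step between its values is the worth of 1 read, and dividing by it returned whole reads for 100% of values (tolerance 0.001). DESeq (role and version not stated) and build mm9 are named in the submitters' processing notes, and no source used here names an aligner or counter. The authors deposited a log2 mean and log2 fold change per gene, and their own p-value columns, per the file headers.

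The main scale is log2(value + 1), on which changes of low genes are understated. The 12304 genes that reached a value of 1 in 2 or more libraries were tested with limma 3.58.1 (trended prior, R 4.3.3), genotype as the sole term, two-sided, Benjamini-Hochberg adjusted over all of them, threshold 0.05. A floor of 3 reads equals 0.579 to 0.953 by library. Promoter sequences are from RefSeq (GRCm38.p6), and exon lengths from GENCODE.

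The members and lists were chosen with earlier results of these data known, among them that the NRF2 programme was lower in KO. Genes named were the 9 members, S100a14, the 4 target genes and 2 genes of each other list with the smallest p, and the nearest 3 genes to Nfe2l2, Keap1 and Bach1 (mean value at least 10). Gsr, Txnrd1, Fth1 and the marker genes Lor, Krt5, Krt14, Perp, Itga6, Cd163 and Adgre1 fall outside this rule and were chosen after their values were seen. Alternatives were quantile normalization, TMM factors, no filter, a pseudocount of 0.1, no trend, edgeR 4.0.16, DESeq2 1.42.0 and leaving out each library. The limma fit alone was tested on simulated data, in which every library had the same spread and none stood apart as KO-8 does.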

Additional observations from a re-analysis of the deposited data

How the results depend on the processing

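No paired analysis was possible because the groups share no replicate number. Besides limma's 1 gene past the threshold, S100a14, the count over all genes was 2 with no filter, 0 with a pseudocount of 0.1 (592 at an unadjusted p under 0.05), 0 with edgeR's quasi-likelihood test (520) and 54 with DESeq2. With each library left out the count ranged from 0 to 510, with 6 calls without KO-8, 510 without KO-1, and 0 without WT-3 or WT-6 (232 and 356 at an unadjusted p under 0.05). The cause was not tested.

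Nfe2l2 was lower in KO under all 11 alternatives, from -3.64 to -1.50 (both ends from leaving out a KO library), with adjusted p-values of 0.00378 to 1. It passed the threshold in 1, without KO-1, and in DESeq2 its adjusted p was 0.163. Keap1 (-0.94 to -0.35), Cul3 (0.43 to 0.85) and Bach1 (0.32 to 1.38) kept their direction in all 11. With a library left out, Nfe2l1 ranged from -0.22 to 0.46, Mafg from -0.49 to 0.74, Mafk from -1.08 to 0.47, Maff from -0.31 to 1.14 and Sqstm1 from -0.94 to 0.15, so each turned once. The median log2 change of the target list lay between -1.75 and -0.99 when 1 library was left out, alternatives added after the data were seen. It was -0.99 without KO-8. All ratios to Nfe2l2 kept their sign. With 2 libraries a group and 19 to 51 Maff reads, small differences were not detectable at this depth.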
